A study of Mus musculus with 6 samples.

Results

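Fatty acid oxidation and the genes that PPAR alpha controls were followed from normal mouse small intestine into tumours of mice in which both atypical protein kinase C genes were targeted in the intestinal epithelium. The set was chosen by gene symbol and holds 33 genes of the 23393 named genes in the count table. It comprises 18 mitochondrial oxidation genes, 4 peroxisomal genes, 3 regulators and 8 other genes known as PPAR alpha targets or as acyl-CoA synthetases. RNA was sequenced from 3 samples labelled WT and 3 labelled DKO tumour, all from C57BL/6 mice aged 12 weeks. Mice of both groups carried floxed alleles of both genes (PKClambda f/f, encoded by Prkci, and PKCzeta f/f, encoded by Prkcz). The WT mice were Villincre-negative and gave whole small intestinal tissue, and the DKO mice were Villincre-positive and gave small intestinal tumours. Villin-Cre acts in intestinal epithelium, so muscle, stroma and immune cells of the DKO mice keep both genes. Tumour tissue and gene deletion differ between the groups at once, and markers of position along the gut differ too, as given below. The shares of these cannot be told apart. DKO intestine without tumour was not analysed here. The labels name no separate animal beyond each sample, so the p-values measure the spread between these samples.

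Fatty acids are activated to acyl-CoA by long-chain synthetases, carried into mitochondria on carnitine and shortened there in a cycle of dehydrogenation, hydration, dehydrogenation and thiolysis. Very long and branched chains are first shortened in peroxisomes. PPAR alpha is a nuclear receptor that binds fatty acids and, with its partner RXR, switches on much of this machinery. In the small intestine it is active in enterocytes, which take up dietary fat.

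Totals ranged from 12491561 to 15799269 counts per library over named genes. Levels are given as CPM, library-scaled counts from edgeR after TMM scaling, and levels of different genes are compared only as CPM per kilobase of exon (CPM per kb). A gene was said to rise or fall in tumours when the adjusted p of edgeR's quasi-likelihood test over the 13866 genes tested was under 0.05. Of the targeted genes, Prkcz was at 60.8 to 70.1 CPM in WT intestine and 14.7 to 19.3 CPM in tumours, whereas Prkci was at 53.3 to 80.7 and 80.3 to 103 CPM, and for Prkci the groups overlapped. Counts over a whole gene do not show whether single exons were removed. Summed enterocyte markers were at 34005 to 53726 CPM in WT intestine and 10249 to 14784 CPM in tumours, and 10 of the 12 fell. Of 6 fibroblast markers 5 rose, of 7 smooth muscle markers 6 fell, and of 5 markers found in all epithelium 2 rose. Summed duodenal markers were at 222 to 265 CPM in WT intestine and at 4101, 190.5 and 1065 CPM in tumours 1, 2 and 3. Position markers thus differed between the tumours and also between the groups, but not in 1 direction. Of the 5 duodenal markers Cybrd1, Slc40a1 and Pdx1 rose, Hsd17b6 fell (log2 -3.07) and Gata4 overlapped. In WT intestine most of the sum came from Gata4 and Hsd17b6. In bulk tissue, fewer cells of a type and less RNA per cell cannot be told apart, and the part of these markers in the differences of the regulators, the mitochondrial, the peroxisomal and the other genes was not tested.

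The mitochondrial oxidation genes moved in both directions, with more lower than higher. All 33 genes passed the filter on low counts. In tumours 11 of them fell (33.3%) and 4 rose (12.1%), against 13.8% lower and 15.9% higher among all genes tested. Every tumour was below every WT library for 15 of the 33, against 22.9% of all genes, and above for 5, against 25.1%. For the other 13 the groups overlapped. The median log2 difference was -0.39 over the 33 and 0.02 over all genes tested. Without WT intestine 2, tumour 2 or tumour 3 the number that fell was 7, 6 and 6, and without WT intestine 1, WT intestine 2, tumour 1 or tumour 3 the number that rose was 2. Calls in the whole table were also fewer without WT intestine 2, tumour 2 or tumour 3, where 7.73%, 9.71% and 6.37% of all genes tested fell. Scaling libraries by their totals gave 7 of the 33 lower and 6 higher, against 7.68% and 27.3% of all genes, and moved the median log2 difference of the whole table up by 0.257. The call held under all 13 alternatives run for 7 genes: Ppargc1a, Crat, Acadm, Acadl, Hadh, Eci1 and Acsl3.

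**Figure D1:**
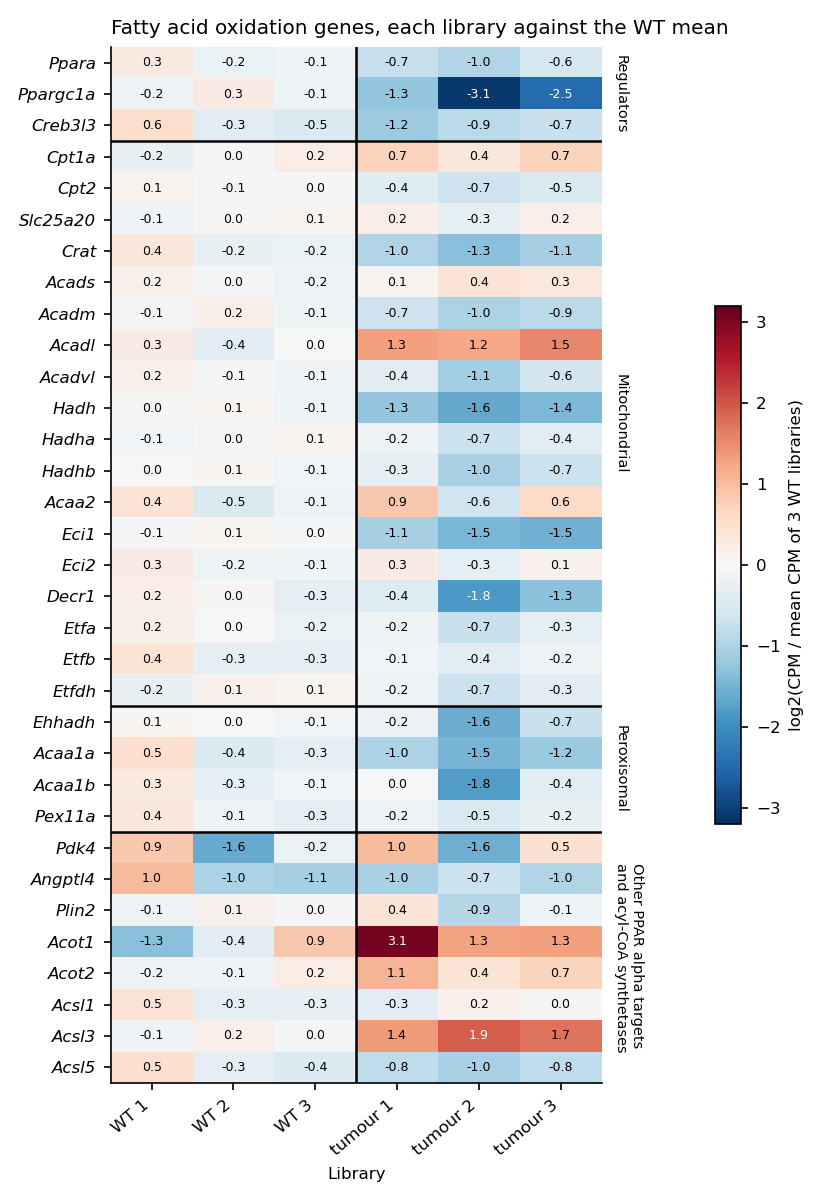
Colour and printed number give the log2 ratio of each library's CPM to the mean CPM of the 3 WT libraries, for the 33 genes (rows) in 6 libraries (columns), with blue lower and red higher. Hadh, Eci1 and Crat are lower in all 3 tumours, Acadl and Acsl3 are higher in all 3, and tumour 2 holds the lowest tumour value of most genes.

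Of the regulators, Ppara and its coactivator Ppargc1a fell. Ppara, the receptor itself (chromosome 15, 85734983 to 85802819 on GRCm38), was at 109.9, 77.6 and 83.8 CPM in WT intestine and 53.9, 46.4 and 61.7 CPM in tumours. Every tumour was below every WT library. The log2 difference was -0.74 (SE 0.176, edgeR adjusted p = 0.0173), and without tumour 2 it was -0.65, with an edgeR adjusted p of 0.0534. Ppargc1a (chromosome 5, 51454250 to 51567726), which drives mitochondrial biogenesis and oxidation genes together with nuclear receptors, was at 77.5, 106 and 79.0 CPM in WT intestine and 36.4, 10.3 and 15.9 CPM in tumours. Its tumour levels spread more than its WT levels, with tumour 1 the highest. The difference was -2.06 on the log2 scale, or 4.17-fold lower (SE 0.421, edgeR adjusted p = 0.00996). Creb3l3, a membrane-bound transcription factor of liver and small intestine that acts with PPAR alpha, was at 949.7, 507 and 464 CPM in WT intestine and 288, 352 and 394 CPM in tumours. The groups did not overlap, but the first WT library was far above the other WT libraries and the difference did not pass the test (log2 -0.89, SE 0.293, edgeR adjusted p = 0.053). Without WT intestine 1 it was -0.50 and without WT intestine 3 it was -1.07, with edgeR adjusted p of 0.0661 and 0.0446.

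The carnitine shuttle genes split, with Cpt1a higher in tumours, Cpt2 and Crat lower, and overlapping groups for Slc25a20. Cpt1a (chromosome 19, 3322334 to 3385733), the outer-membrane carnitine palmitoyltransferase that controls entry of long chains, was at 117, 133 and 159.9 CPM in WT intestine and 226, 177 and 225 CPM in tumours. All tumours were above all WT libraries, and Cpt1a rose by 0.61 on the log2 scale (SE 0.172, edgeR adjusted p = 0.0311). That call was lost without WT intestine 1 or 2 or tumour 1 or 3, where the adjusted p of edgeR ran from 0.0613 to 0.115. Cpt2, its inner-membrane partner, was at 151, 134 and 137 CPM in WT intestine and 108, 89.1 and 101 CPM in tumours. It fell (log2 -0.50, SE 0.131, edgeR adjusted p = 0.025), but not without WT intestine 2 or 3 or tumour 2 or 3, where the adjusted p of edgeR was 0.0652 to 0.0922, nor under library totals (log2 -0.23, 0.205). Within each library the ratio of Cpt1a to Cpt2 in CPM per kb was 0.242 to 0.366 in WT intestine and 0.62 to 0.694 in tumours. In all tumours Cpt1a was thus above its WT range and Cpt2 below it. Crat, the carnitine acetyltransferase of mitochondria and peroxisomes, was at 197, 130.3 and 132 CPM in WT intestine and 78.5, 60.3 and 73.7 CPM in tumours. Crat was 2.16-fold lower without overlap (log2 -1.11, SE 0.198, edgeR adjusted p = 0.00587). Slc25a20, the carnitine-acylcarnitine carrier of the inner membrane, was at 71.1 to 79.6 CPM in WT intestine and 62.3 to 89.2 CPM in tumours, with overlapping groups.

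Among the acyl-CoA dehydrogenases, which start each turn of the cycle and differ in the chain length they accept, Acadl rose while Acadm and Acadvl fell. Acadl (chromosome 1, 66830839 to 66863277), the long-chain enzyme, was at 134, 86.9 and 112 CPM in WT intestine and 275, 261 and 320.2 CPM in tumours. The lowest tumour was well above the highest WT library. Acadl rose 2.57-fold (log2 1.36, SE 0.19, edgeR adjusted p = 0.00218). Acadm (chromosome 3, 153922357 to 153944632), the medium-chain enzyme, was at 199, 239.9 and 190.1 CPM in WT intestine and 132, 104 and 116 CPM in tumours. It fell 1.79-fold with no overlap (log2 -0.84, SE 0.155, edgeR adjusted p = 0.00671). Acadvl, the very long-chain enzyme of the inner membrane, was at 245, 209 and 201 CPM in WT intestine and 169, 101 and 146 CPM in tumours. Its fall (log2 -0.65, SE 0.203, edgeR adjusted p = 0.0445) passed the test in full data but not when any library except tumour 1 was left out, where the adjusted p of edgeR was 0.0803 to 0.112, nor under library totals (0.167) or upper-quartile factors (0.0744). Acads, the short-chain enzyme, was at 54.2 to 68.4 CPM in WT intestine and 65.6 to 82.0 CPM in tumours, with a log2 difference of 0.30 that did not pass (SE 0.145, edgeR adjusted p = 0.153).

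The order of the dehydrogenases by level per length changed between the groups. In WT intestine the group means were 81.2 CPM per kb for Acadvl, 55.3 for Acadl, 53.6 for Acadm and 26.7 for Acads, and the Acadl and Acadm values of single libraries overlapped. In tumours they were 142 for Acadl, 51.7 for Acadvl, 32.9 for Acads and 30.0 for Acadm, and the last pair overlapped. Within libraries the ratio of Acadl to Acadm was 0.707 to 1.31 in WT intestine and 4.07 to 5.39 in tumours. The ratio of Acadl to Acadvl was 0.558 to 0.749 and 2.18 to 3.44. These ratios do not depend on the scaling of a library, and both separated the groups without overlap. They are given as a description, with no test.

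**Figure D2:**
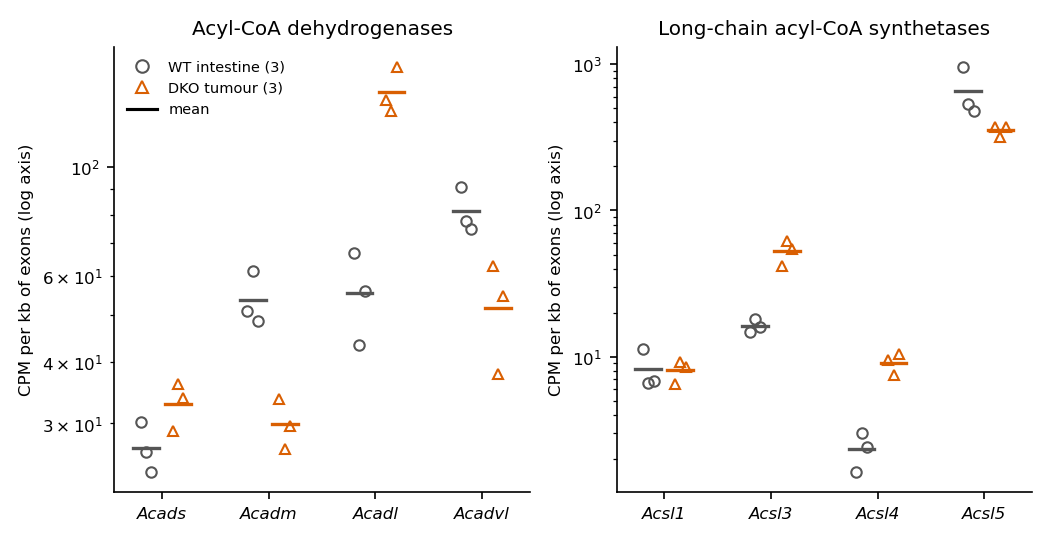
Points are libraries and lines are group means of CPM per kilobase of exon on a log axis, for the acyl-CoA dehydrogenases (left) and the long-chain acyl-CoA synthetases (right), with grey circles for WT intestine and orange triangles for DKO tumours (3 each). Acadl moves from a mean of 55.3 to 142 while Acadm moves from 53.6 to 30.0, and Acsl3 and Acsl4 are higher in tumours while Acsl5 is lower.

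In the rest of the cycle the members that passed the test all fell. Hadh (chromosome 3, 131233419 to 131272101), the 3-hydroxyacyl-CoA dehydrogenase for medium and short chains, was at 844, 875 and 739 CPM in WT intestine and 341, 263 and 303 CPM in tumours. Every tumour lay below every WT library, and Hadh was 2.71-fold lower (log2 -1.44, SE 0.175, edgeR adjusted p = 0.00126). It was the most abundant mitochondrial gene of the 18 per length in WT intestine, at 165 CPM per kb, by group mean, and its tumour mean of 60.8 was below those of Acadl, Acaa2, Etfa and Etfb, although in tumour 2 Hadh was above Acaa2.

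Hadha and Hadhb encode the alpha and beta subunits of the mitochondrial trifunctional protein, which handles long chains, and lie head to head on chromosome 5. The sequence of GRCm38.p6 between their spans in GENCODE M21, whose starts differ from those of RefSeq, is 85 bases long. This sequence is shown because both genes are read outward from it. It spans chr5:30155163-30155247 on the plus strand, with capitals marking each GGGCGG, the GC box.
Hadha and Hadhb interval: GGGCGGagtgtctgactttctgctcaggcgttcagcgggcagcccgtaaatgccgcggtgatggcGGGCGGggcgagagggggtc
It holds 2 GC boxes in 85 bases. Of the 32851 promoter windows of the RefSeq table, which are longer at 300 bases each, 35.7% hold at least 1 on either strand. Hadhb was at 116, 120.2 and 109 CPM in WT intestine and 92.5, 55.6 and 70.8 CPM in tumours, and Hadha was at 324, 335 and 366 CPM and 303, 211 and 267 CPM. For both genes every tumour was below every WT library, with tumour 2 the lowest. Hadhb fell (log2 -0.65, SE 0.188, edgeR adjusted p = 0.0344) but did not without any library except tumour 1, where the adjusted p of edgeR was 0.0624 to 0.116, nor under library totals (0.164) or upper-quartile factors (0.0623). Hadha did not pass (log2 -0.39, SE 0.173, edgeR adjusted p = 0.124). The ratio of Hadha to Hadhb per length was 2.10 to 2.54 in WT intestine and 2.48 to 2.87 in tumours, and these ranges overlap. Of the 75-base windows of Hadhb transcripts, 16.7% also occur in another gene, mostly a gene model, so part of its reads is uncertain.

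Acaa2, the mitochondrial thiolase that ends the cycle, was at 151, 81.5 and 103 CPM in WT intestine and 205, 71.4 and 171 CPM in tumours. Tumour 2 was below all WT libraries while the other tumours were above them, and the difference did not pass (log2 0.41, SE 0.382, edgeR adjusted p = 0.442). Of the auxiliary enzymes for unsaturated chains, Eci1, a mitochondrial enoyl-CoA isomerase, was at 66.7, 74.4 and 67.3 CPM in WT intestine and 33.5, 25.4 and 24.1 CPM in tumours. It was 2.51-fold lower with no overlap (log2 -1.33, SE 0.16, edgeR adjusted p = 0.00121). Decr1, the mitochondrial dienoyl-CoA reductase, was at 212, 187 and 145 CPM in WT intestine and 136, 51.0 and 72.8 CPM in tumours. Tumour 1 was close to WT intestine 3, and the fall (log2 -1.06, SE 0.34, edgeR adjusted p = 0.0487) was lost without any library except tumour 1, with an adjusted p of edgeR from 0.0667 to 0.155. It was also lost under library totals, upper-quartile factors and a filter of 50 counts, with 0.105, 0.0703 and 0.0511. Eci2, an isomerase of mitochondria and peroxisomes, was at 49.6 to 67.3 CPM in WT intestine and 45.6 to 67.2 CPM in tumours. The electron transfer genes Etfa, Etfb and Etfdh, which pass electrons from the dehydrogenases to ubiquinone, had log2 differences of -0.38, -0.20 and -0.39, and none passed. For Etfb 39.6% of the transcript windows also occur in another gene.

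Over the 18 mitochondrial genes 8 fell (44.4%) and 2 rose (11.1%), against 13.8% and 15.9% of all genes tested. Their median log2 difference was -0.39. Every tumour was below every WT library for 9 of the 18, against 22.9% of all genes, and above for 2, against 25.1%. The number that fell was 4 to 8 when a library was left out, with 5 without WT intestine 1 and 4 without WT intestine 2, WT intestine 3, tumour 2 or tumour 3. The number that rose was 1 without WT intestine 1, WT intestine 2, tumour 1 or tumour 3. Under library totals 4 fell and 3 rose. Their summed level was 3482, 3263 and 3080 CPM in WT intestine and 2747, 1969 and 2505 CPM in tumours. As a measure of other mitochondrial genes, 14 genes of respiration, import and the citric acid cycle summed to 7983 to 10927 CPM in WT intestine and 5635 to 6823 CPM in tumours. Their median log2 difference was -0.39, like that of the 18 oxidation genes. Of the 14, 3 fell (Cs, Uqcrc2 and Ndufa9) and 0 rose, against 13.8% lower and 15.9% higher among all genes tested. The import genes Tomm20, Tomm22 and Timm23 and the chaperone Hspd1 had log2 differences of 0.25, 0.12, 0.31 and 0.26. The ratio of the oxidation genes to these genes was 0.319 to 0.397 in WT intestine and 0.349 to 0.411 in tumours, so the groups overlapped by this measure. For Hadh the same ratio was 0.0772 to 0.106 and 0.0444 to 0.051, and for Acadl it was 0.0106 to 0.0141 and 0.0411 to 0.0469, with no overlap for either gene. Enterocyte markers were lower in the same tumours, with a median log2 difference of -2.12.

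**Figure D3:**
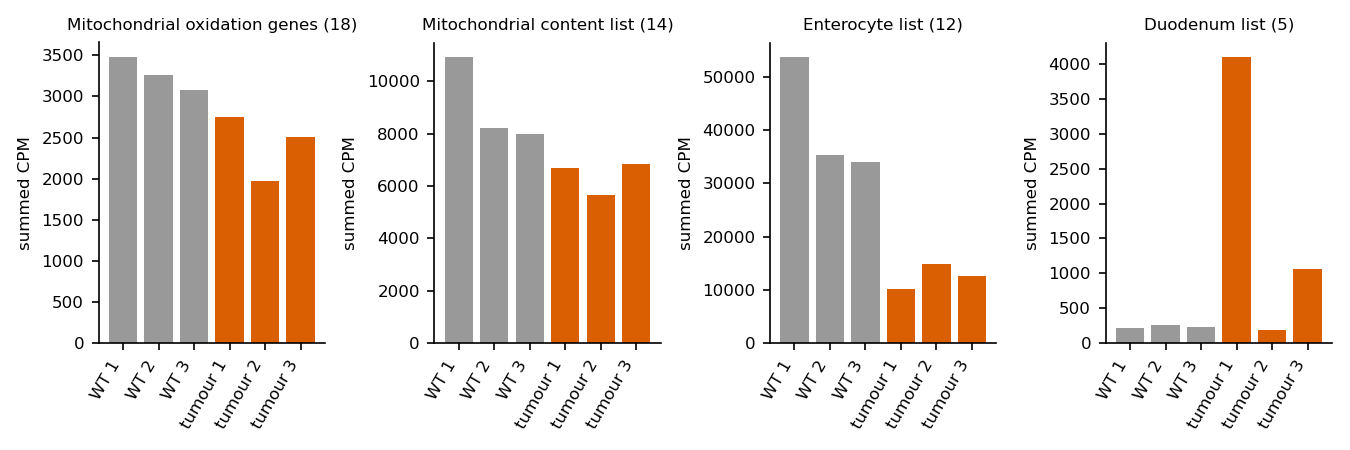
Bars give the summed CPM per library of the 18 mitochondrial oxidation genes, 14 other mitochondrial genes, 12 enterocyte markers and 5 duodenal markers, with WT intestine in grey and DKO tumours in orange and each axis starting at 0. The oxidation genes are at 1969 to 2747 CPM in tumours and 3080 to 3482 in WT intestine, and the duodenal markers reach 4101 CPM in tumour 1.

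Tumour 2 had the lowest tumour value for 27 of the 33 genes (81.8%) and tumour 1 the highest for 25 (75.8%), against 34.8% and 38.2% of all genes tested. Among the mitochondrial genes it was 16 of 18 in each case. The median log2 ratio to the WT mean over the 33 genes was -0.17 in tumour 1, -0.71 in tumour 2 and -0.36 in tumour 3. By summed level tumour 1 was also the tumour with the highest duodenal and the lowest enterocyte markers, and tumour 2 the one with the lowest duodenal and the highest enterocyte and ileal markers. Single markers differed from these sums: the iron genes Cybrd1 and Slc40a1 made up most of the duodenal sum of tumour 1, Gata4 was highest in tumour 3, and the enterocyte genes Alpi and Treh were highest in tumour 1. The part of these differences in the order of the tumours was not tested.

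The peroxisomal genes were all lower in mean, but only Acaa1a fell. Acaa1a (chromosome 9, 119339676 to 119350299), a peroxisomal thiolase, was at 263, 133 and 148 CPM in WT intestine and 90.8, 64.2 and 79.1 CPM in tumours. WT intestine 1 was well above the other WT libraries, and every tumour was below all of them. The log2 difference was -1.21 (SE 0.273, edgeR adjusted p = 0.0142), and without tumour 3 it was -1.22 with an edgeR adjusted p of 0.0551. Ehhadh, the bifunctional enzyme of the peroxisomal cycle, was at 165, 162 and 151 CPM in WT intestine and 141, 52.8 and 96.8 CPM in tumours. The groups did not overlap, but the tumours ranged widely and the difference did not pass (log2 -0.72, SE 0.308, edgeR adjusted p = 0.113). Without tumour 1 it was -1.09 and without tumour 2 it was -0.43, with edgeR adjusted p of 0.0191 and 0.161. Acaa1b, a close copy of Acaa1a, was at 10.1 to 15.1 CPM in WT intestine and 3.56 to 12.2 CPM in tumours. Pex11a, a peroxisome division factor, was at 18.3 to 29.3 and 16.3 to 20.2 CPM. Of the 75-base windows along the transcripts of Acaa1b, 24.4% also occur in another gene, mostly Acaa1a, so reads may have been split between this pair.

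Of the 8 other genes, Acsl3 and Acot1 rose and none fell. Acsl3 (chromosome 1, 78657825 to 78707743), a long-chain acyl-CoA synthetase of the endoplasmic reticulum and lipid droplets, was at 64.3, 79.2 and 69.8 CPM in WT intestine and 182, 271 and 238 CPM in tumours. It was 3.24-fold higher, with every tumour above every WT library (log2 1.70, SE 0.181, edgeR adjusted p = 0.00077). Acsl5, the main long-chain synthetase of enterocytes, was at 4637, 2587 and 2338 CPM in WT intestine and 1800.0, 1543 and 1814 CPM in tumours. The groups did not overlap, WT intestine 1 stood far above the rest, and the difference did not pass (log2 -0.89, SE 0.295, edgeR adjusted p = 0.0545). Without WT intestine 1 it was -0.52, with an edgeR adjusted p of 0.0676. Acsl1, a synthetase of outer mitochondrial membrane and endoplasmic reticulum, overlapped at 68.9 to 118 and 68.2 to 97.1 CPM. Per length, Acsl5 remained the most abundant synthetase, at 655 CPM per kb in WT intestine and 353 in tumours, while Acsl3 went from 16.3 to 52.9 and Acsl1 stood at 8.21 and 8.07. The ratio of Acsl3 to Acsl5 within libraries was 0.0155 to 0.0342 in WT intestine and 0.113 to 0.196 in tumours.

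The acyl-CoA thioesterases, which release free fatty acids from acyl-CoA, were few in counts. Acot1, the cytosolic enzyme, had 3, 7 and 20 counts in WT intestine and 99, 26 and 24 counts in tumours, so it passed the filter through the tumours and 1 WT library. Its rise (log2 2.08, SE 0.667, edgeR adjusted p = 0.0492) was lost without WT intestine 1, WT intestine 2, tumour 1 or tumour 3, where the log2 value was 1.22 to 2.36 and the adjusted p of edgeR 0.0633 to 0.148. Acot2, the mitochondrial enzyme, was at 2.55 to 3.38 CPM in WT intestine and 3.89 to 6.07 CPM in tumours, without overlap (log2 0.76, SE 0.26, edgeR adjusted p = 0.0599). Of the transcript windows of Acot2, 21.2% also occur in another gene, mostly Acot1.

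For the PPAR alpha targets Pdk4, Angptl4 and Plin2 the groups overlapped. Pdk4, the kinase that turns off pyruvate oxidation, was at 21.6, 3.93 and 10.4 CPM in WT intestine and 24.2, 4.03 and 16.7 CPM in tumours. Angptl4, a secreted lipoprotein lipase inhibitor, was at 31.8, 7.71 and 7.47 CPM in WT intestine and 7.62, 9.67 and 8.08 CPM in tumours. Plin2, a coat protein of lipid droplets, was at 64.3, 75.5 and 67.7 CPM in WT intestine and 94.4, 36.9 and 63.0 CPM in tumours. The spread within groups was wide, and the log2 difference was 0.34 for Pdk4 (SE 0.702, edgeR adjusted p = 0.746) and -0.09 for Plin2 (SE 0.298, edgeR adjusted p = 0.834). The high WT value of Angptl4 came from WT intestine 1 alone, and without that library the log2 difference went from -0.88 to 0.15.

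**Figure D4:**
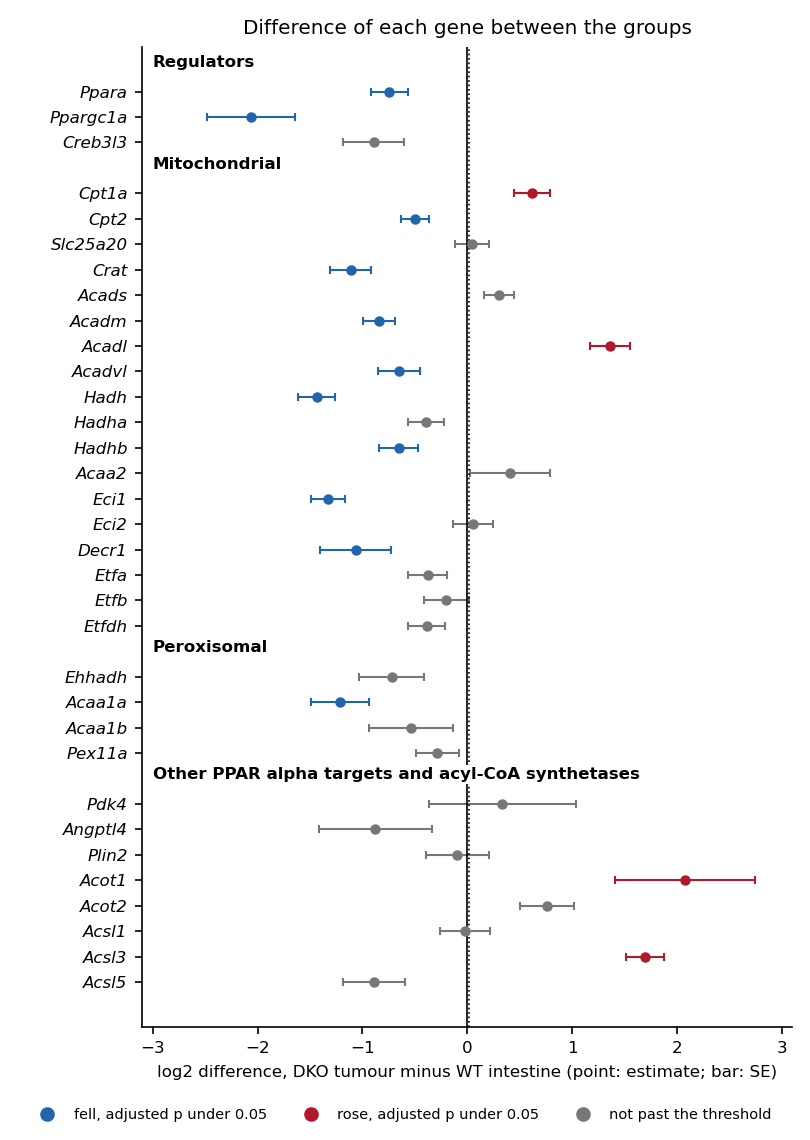
Points give the log2 difference, DKO tumour minus WT intestine (3 libraries each), for the 33 genes by role, and bars give the SE, with blue for genes that fell, red for genes that rose (edgeR adjusted p under 0.05), grey for the rest and a dotted line at the median of all genes tested, 0.02. Ppargc1a at -2.06 is lowest, Hadh at -1.44 and Eci1 at -1.33 are low with small errors, Acadl at 1.36 and Acsl3 at 1.70 are high, and Pdk4 and Acot1 have the widest bars.

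PPAR alpha with RXR binds a direct repeat of AGGTCA with 1 base between the copies. A match with at most 2 mismatches over the 12 letters was searched on both strands of the RefSeq windows of GRCm38.p6. These run from 250 bases before to 50 after each RefSeq start, and a gene may have more than 1 window. Of the 29 genes with a window, 4 held a match (13.8%), against 4.4% of 27025 genes in that table. They are shown with 8 flanking bases in lower case and the match in capitals, on the strand of the match.
Plin2: tctgacttAGGTCAGGGGTCCtgaaagct
Etfa: ttgggagtAGGGCAAAGGTAAgggtgtgc
Slc25a20: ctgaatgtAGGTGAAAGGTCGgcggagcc
Creb3l3: ctgtaagtAGGGGAGAGGTCAcacagacc
The Plin2 site spans chr4:86670264-86670292 on the plus strand, opposite to the gene, and the Etfa site spans chr9:55512300-55512328, also on the plus strand and opposite to its gene. The Slc25a20 site spans chr9:108662134-108662162 on the plus strand and the Creb3l3 site chr10:81092780-81092808 on the minus strand, each the strand of its gene. None of these 4 genes passed the test. Creb3l3 had 2 windows, and its match lay in the one at chr10:81092542-81092841, within the gene. The window at its outer start, chr10:81098823-81099122, held none. A match is a run of letters and not a binding site, and the windows leave out most intron sequence and distant elements.

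Among 98 other genes of the pathway 85 were tested. Of these 34 fell (40%) and 11 rose (12.9%), against 13.8% and 15.9% of all genes tested. Their median log2 difference was -0.42, against 0.02 over all genes tested. Without WT intestine 2 or tumour 3 the falls were 21 and 18 and the rises 6 and 5, and under library totals they were 20 and 18. Of the 17 tested nuclear receptors and co-regulators 8 fell (47.1%) and 3 rose (17.6%), and without tumour 3 it was 4 and 1. Under library totals 3 fell and 5 rose, so the balance of this list depends on scaling. Pparg, the PPAR of adipocytes and colon epithelium, rose from 21.5, 11.7 and 10.7 CPM in WT intestine to 78.0, 58.8 and 81.6 CPM in tumours (log2 2.32, SE 0.284, edgeR adjusted p = 0.00128). Ppard, the broadly expressed PPAR, fell (log2 -0.56, edgeR adjusted p = 0.0137), but not without WT intestine 2 or tumour 3, where the adjusted p of edgeR was 0.0572 and 0.076. Also lower were the orphan receptor Esrrg (log2 -3.12), the nuclear receptor Hnf4g (log2 -1.53) and the deacetylase Sirt1 (log2 -0.86). The 3 PPAR genes thus moved in different directions, with Pparg higher and Ppara and Ppard lower.

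Genes listed under peroxisomal oxidation outside the set were mostly lower, as 12 of 25 tested fell (48%) and 1 rose (4%), against 13.8% and 15.9% of all genes tested. Without WT intestine 2 or tumour 3 there were 8 falls. The thioesterase Acot12, counted on this list although its enzyme is cytosolic, had a log2 difference of -2.45. The thiolase and sterol carrier Scp2 had -1.33 and catalase (Cat) -1.55, and all passed the edgeR test. Of 19 genes tested on a list of further mitochondrial oxidation genes 6 fell (31.6%) and 5 rose (26.3%), without tumour 3 it was 3 and 1, and under library totals 3 and 5. Not all of that list is mitochondrial: it holds the carnitine carrier Slc22a5 of the plasma membrane and Cpt1c of the endoplasmic reticulum, which was among the rises. The kinases of pyruvate dehydrogenase differed, with Pdk2 (log2 -1.25) and Pdk3 (log2 -1.30) lower and Pdk1 (log2 0.73) higher, all past the edgeR test, and the mitochondrial thioesterase Acot13 fell (log2 -0.62).

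Of 18 further PPAR alpha targets tested, 7 fell (38.9%) and 2 rose (11.1%), against 13.8% and 15.9% of all genes tested. There were 4 falls and 3 rises without WT intestine 1, 3 and 2 without tumour 3, and 6 and 5 under library totals. Fabp1, the fatty acid binding protein of enterocytes and liver, fell (log2 -1.79, SE 0.501, edgeR adjusted p = 0.0312), but not without WT intestine 1 or 2 or tumour 2 or 3, where the adjusted p of edgeR was 0.0574 to 0.0885. Also past the test were the falls of the pantetheinase Vnn1 (log2 -2.79) and of the glycerol kinase Gyk (log2 -1.14). Acsl4, a synthetase that prefers arachidonic acid, rose (log2 1.95, SE 0.238, edgeR adjusted p = 0.00126), as did Hilpda, an inhibitor of lipid droplet lipolysis (log2 1.52). The fatty acid receptor Cd36 did not pass (log2 -0.79, SE 0.289, edgeR adjusted p = 0.0737), but did without tumour 1 (log2 -1.09, edgeR adjusted p = 0.0221), and without tumour 2 it was -0.50 (edgeR adjusted p = 0.0829). Of 6 genes of ketone body metabolism 1 fell (16.7%, near the 13.8% of all genes tested), the thiolase Acat1 (log2 -0.72, edgeR adjusted p = 0.0382). Its call was lost without any library except tumour 1 (edgeR adjusted p 0.0641 to 0.129) and under library totals (0.152). Cyp4a10, an omega-hydroxylase and PPAR alpha target, had 1, 1 and 7 counts in WT intestine and 23, 0 and 0 in tumours, and was not tested.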

How the data were processed

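The authors deposited raw read counts for each gene symbol, in 1 column per sample, and these were used as counts. The sheet title speaks of normal DKO tissue, the column headers of DKO tumours, and the headers were followed. Per the submitters' processing notes STAR, DESeq2 and the build mm10 were used, and per the labels the libraries were poly(A), directional and single-end. Which program counted reads, on what annotation and with what strand setting, is not given in the sources used here. Reads of genes overlapping on opposite strands (Crat, Acadvl, Hadha, Acaa1a and Acsl5 among others) may therefore be mixed, and those of close copies lost or split. Acsl3 overlaps Utp14b on its own strand.

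From 23420 rows, 27 that held a date in place of a name were removed (0.218% to 0.241% of a library's counts). The 13866 genes reaching 10 counts in 3 libraries entered 1 fit of edgeR 4.0.16 (quasi-likelihood F test, TMM, R 4.3.3) with group as its only term, and p-values were adjusted by Benjamini-Hochberg over all of them at a threshold of 0.05. SE is the size of the log2 difference divided by the square root of F. The fit was tested on simulated data. Exon lengths and gene coordinates come from GENCODE M21. Precision is that of 3 libraries per group at a biological coefficient of variation of 0.227, and reads carried no molecular identifiers.

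The 33 genes, the other lists and the rule for named genes were chosen with earlier results of these data known. The rule names all 33, up to 4 genes with the smallest adjusted p of each other list, and 6 fixed genes, of which some are not reported here. Alternatives were the DESeq2 1.42.0 test, its size factors, library totals or upper-quartile factors for scaling, no filter or one of 50 counts, a replicate block, and each library left out in turn. A planned comparison of protein sequences of close copies was not made, and windows of 75 bases shared between transcripts stand in its place.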

Additional observations from a re-analysis of the deposited data

How the results depend on the processing

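Of the 15 calls among the 33 genes 7 held under all 13 alternatives, 8 were lost under at least 1, and 5 further genes passed under at least 1. The number of the 33 that fell, 11 in the reported fit, was 7 under library totals and 6 to 12 when 1 library was left out. The number that rose, 4, was 2 with the replicate block and 2 to 4 when 1 library was left out. Other pathway genes that fell, 34, were 20 under library totals and 18 to 34 without 1 library, and those that rose, 11, were 18 and 5 to 11. Directions reversed only for genes outside the threshold in the reported fit: under library totals Etfb 0.085, Plin2 0.17 and Acsl1 0.26, under upper-quartile factors Acsl1 0.062, and with the replicate block Acsl1 0.0098 (log2). Without 1 library Slc25a20 ran from -0.046 to 0.20, Eci2 from -0.062 to 0.21, Etfb from -0.33 to 0.075, Pdk4 from -0.20 to 1.05, Angptl4 from -1.20 to 0.15, Plin2 from -0.47 to 0.19 and Acsl1 from -0.16 to 0.27. DESeq2 as the test also called Creb3l3 (adjusted p = 0.00922) and Acsl5 (adjusted p = 0.00509). Library totals ended the calls of Cpt2, Acadvl, Hadhb, Decr1, Acat1 (adjusted p 0.105 to 0.205), Sirt1 (0.0503), Acot13 (0.0575) and Ppard (0.0963) in edgeR. In these data library totals raised the log2 differences relative to TMM, because the TMM factors were 0.828 to 0.976 in WT intestine and 1.08 to 1.11 in tumours. The cause of the other changes was not tested. Same-numbered samples did not deviate together (correlations 0.0152, 0.0104 and -0.0304), and the reported fit pairs no samples. So few samples cannot show whether any were paired. The replicate block gave 9 falls and 2 rises, ending the calls of Cpt1a (edgeR adjusted p = 0.0536), Cpt2 (0.051), Hadhb (0.0518), Acot1 (0.103) and Acat1 (0.0592). Low counts limit Acot1, Acot2 and Acaa1b.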

Other observations

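The long-chain acyl-CoA synthetases shifted in their makeup within libraries. The ratio of Acsl4 to Acsl5 in CPM per kb was 0.00171 to 0.00564 in WT intestine and 0.0237 to 0.0278 in tumours, a pattern like that of Acsl3 to Acsl5, and no test was made of either. The ratio of Acaa1a to Acaa1b was 5.68 to 7.73 in WT intestine and 3.30 to 8.02 in tumours, with tumour 2 the highest of all libraries. Ileal markers summed to 346 to 412 CPM in WT intestine and to 106, 341 and 106 CPM in tumours 1, 2 and 3. Slc51a and Slc51b, which fell, made up most of these sums, and the other ileal markers differed from them. Fabp6 was at 0.31 to 0.47 CPM in WT intestine and 0.54, 71.8 and 0.07 CPM in tumours 1, 2 and 3. Slc10a2 was at 0.87 to 2.27 CPM in WT intestine and 2.26, 46.8 and 2.67 CPM in those tumours.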
